A study of Mus musculus with 22 samples.

Results

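This account follows genes of Schwann cells and nerve roots, Pmp2, Pmp22, Egr2, Ncmap, Prx and Pou3f1, in the mouse spinal cord after aortic cross-clamping. The 6 genes and the gene lists set beside them were chosen by name, with earlier results of these data known. For each gene the probe set with a single symbol and the highest mean over all grouped arrays was taken. Such a probe set was found for 5 of the 6 listed genes, among 18193 genes in all. Prx has no value here.

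Wild-type C57Bl/6 mice aged 10 to 12 weeks underwent sham surgery or occlusion of the aorta for 7.5 min. The spinal cord was divided at T6 into a rostral part, above that level, and a caudal part, below it. Total RNA of each part was hybridised to its own Affymetrix array. There were 4 rostral and 3 caudal arrays after sham surgery, 3 rostral and 3 caudal arrays 24 h after the clamp, and 4 rostral and 4 caudal arrays 48 h after it. Another rostral array, numbered 276, carries labels of both clamp times and was placed in no group. The labels give neither the time at which sham tissue was taken nor whether arrays with different numbers came from different mice, so p-values measure the spread between arrays, which may be technical.

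Schwann cells are the myelinating glia of peripheral nerves, and oligodendrocytes are those of the brain and spinal cord. The border between both kinds of myelin lies where spinal roots enter or leave the cord, so pieces of root left on a dissected cord bring Schwann cell transcripts with them. Egr2, also called Krox20, is the zinc finger transcription factor that drives the peripheral myelin programme, and Pou3f1, also called Oct6 or SCIP, is the POU domain factor that acts before it in promyelinating Schwann cells. Pmp22 is a tetraspan protein of compact peripheral myelin, Pmp2 is a fatty acid binding protein of the cytoplasmic face of that myelin, and Ncmap is a membrane protein of noncompact peripheral myelin. Prx encodes periaxin, a scaffold of the myelinating Schwann cell.

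Promoter sequence from RefSeq (build GRCm38.p6) was matched by symbol for 4 of the 6 genes, Pmp22, Egr2, Ncmap and Prx, with 12 windows reaching from 250 bases before a start site to 50 bases after it, some of which overlap. These windows were searched on both strands for GCGNGGGCG (the EGR motif), ACAAAG (a SOX motif), ATGCAAAT (the octamer of POU factors) and the CArG box of serum response factor. The matches found do not overlap each other. The EGR motif occurred in 5.55% of 32851 windows of the same length from all genes and the SOX motif in 18.7%, and neither occurred in the windows of these genes. The octamer, found in 1.74% of all windows, occurred in Egr2 and in Prx. The CArG box, found in 1.63% of all windows, occurred in Egr2, whose relatives Egr1 and Egr3 are textbook immediate early genes. The 30 bases around these matches are shown 5′ to 3′ on the gene's strand with the motif in capitals, because Egr2 and its family are set beside the immediate early genes below. Counted from the start site, the octamer of Egr2 begins at −127 for the start at 67537869, and the CArG boxes begin at −72 for the starts at 67537869 and 67537566. A match is a description of the letters and not a sign of binding.
Egr2 octamer, chr10:67537731-67537760, plus strand: gccaagcccgtATGCAAATtggccatgtga
Egr2 CArG box, chr10:67537787-67537816, plus strand: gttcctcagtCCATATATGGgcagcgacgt
Egr2 CArG box, chr10:67537484-67537513, plus strand: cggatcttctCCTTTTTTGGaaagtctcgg
Prx octamer, chr7:27499080-27499109, plus strand: atgggggtggtATGCAAATtcttgaactaa

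Pmp22 and Ncmap, which shared the regional difference described below, are shown by the 250 bases before the farthest upstream start site listed for each, in lower case throughout since none of the motifs occurred there.
Pmp22, chr11:63128732-63128981, plus strand: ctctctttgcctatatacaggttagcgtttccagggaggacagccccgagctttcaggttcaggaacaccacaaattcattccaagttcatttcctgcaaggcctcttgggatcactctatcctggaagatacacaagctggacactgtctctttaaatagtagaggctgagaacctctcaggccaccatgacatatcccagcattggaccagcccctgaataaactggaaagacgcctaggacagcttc
Ncmap, chr4:135398228-135398477, minus strand: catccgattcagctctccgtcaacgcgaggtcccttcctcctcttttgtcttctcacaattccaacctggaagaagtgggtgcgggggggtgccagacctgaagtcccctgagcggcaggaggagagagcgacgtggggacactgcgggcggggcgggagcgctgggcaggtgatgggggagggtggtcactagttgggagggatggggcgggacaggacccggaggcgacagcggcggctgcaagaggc

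Values are log2 signals as deposited, normalised by RMA, a method that puts all arrays on a common scale. The median probe set signal was 6.79 to 6.88 on the 22 arrays. Groups were compared with limma, which pools the spread over all 6 groups, and a gene was called where its p-value, adjusted by the Benjamini-Hochberg method over 18193 genes, was under 0.05. Differences in log2 are given with the standard error (SE) of the fit. Central myelin genes, the markers of the labelled tissue, had a mean signal of 12.0 on the caudal and 12.1 on the rostral sham arrays (medians of the arrays). In bulk tissue, fewer cells of a type cannot be told apart from less RNA per cell.

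A few arrays stood apart in ways that touch these genes. The pair numbered 283, from 24 h, went against its labels for Pmp2, Pmp22, Egr2 and Ncmap. On a scale where 0 is the mean of the rostral sham arrays and 1 that of the caudal sham arrays, the array labelled 283 caudal lay between −0.02 and 0.06 for the 4 genes, and the array labelled 283 rostral lay between 0.55 and 0.77. The mean signal of 9 sensory ganglion markers was 6.25 on the library labelled 283 caudal and 6.91 on the library labelled 283 rostral, also the reverse of the sham order. Results are therefore given with and without both arrays of that number. Because these genes set the pair apart, leaving it out also narrows their SE in every comparison, and the p-values without it are not independent of that choice. The caudal 48 h array numbered 271 had an SD over genes of 2.05 against 2.21 to 2.27 on the other arrays. Its median correlation with other arrays was 0.912, against 0.974 to 0.995 for the rest, and its lower quartile 5.52, against 5.17 to 5.27. Among the caudal 48 h arrays it had the highest Pou3f1 signal, 10.02, and the lowest Pmp22 signal, 11.73. At 48 h the mean signal of 8 heart muscle markers was 9.41 to 10.99 on rostral and 6.58 to 8.08 on caudal arrays, against 5.65 to 5.74 on rostral sham arrays, and the part of this in the results was not tested.

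In sham mice, Pmp2, Egr2 and Ncmap were higher in the caudal than in the rostral cord, by 6.03-fold, 5.11-fold and 2.87-fold. Pmp22 was 3.15-fold higher by its means and missed the threshold with all arrays, while it passed without the 283 pair. Pou3f1 showed no such difference, with a fitted value of 0.11 in log2 (95% interval −0.59 to 0.81). The sham arrays of the regions did not overlap for Pmp2, Egr2, Ncmap and Pmp22, and they did for Pou3f1. With groups of 3 and 4 arrays this only describes the readings, and no share of all genes is given for it.

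The signal of Pmp2 was 7.77, 7.96 and 7.75 on the caudal sham arrays and 5.01, 5.29, 5.31 and 5.34 on the rostral sham arrays. All 3 caudal arrays thus lay far above the 4 rostral arrays. The rostral values lay near the lower quartile of all probe sets on the arrays (5.17 to 5.52), where RMA compresses differences, so the fold is approximate. The difference was 2.59 ± 0.43 in log2 (SE, adjusted p = 0.0105), and 2.59 ± 0.14 without the 283 pair (adjusted p = 6.88e-09).

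For Pmp22, caudal sham arrays read 13.31, 13.20 and 13.18, and rostral sham arrays read 11.65, 11.50, 11.53 and 11.63. The regions were separate, with little spread inside either. The difference of 1.65 ± 0.36 had an adjusted p of 0.0576 with all arrays, and 1.65 ± 0.25 an adjusted p of 0.00203 without the 283 pair.

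Ncmap read 9.80, 9.61 and 9.58 in the caudal and 8.01, 8.01, 8.32 and 8.22 in the rostral sham cord. The lowest caudal array exceeded the highest rostral array by more than the range within either group. The difference was 1.52 ± 0.28 (adjusted p = 0.0224), and the adjusted p was 8.77e-05 without the 283 pair.

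Egr2, the factor upstream of these myelin genes, read 8.27, 8.38 and 8.38 on caudal and 5.75, 5.88, 5.90 and 6.42 on rostral sham arrays. The groups were separate although rostral array 280 was the highest of its group. The difference was 2.35 ± 0.43 (adjusted p = 0.0206), and the adjusted p was 0.000166 without the 283 pair. A dimmer probe set of Egr2 gave 2.46 (adjusted p = 0.0144 over 34945 probe sets). Its mean on the rostral sham arrays was 4.23, below the lower quartile of all probe sets.

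Pou3f1 read 7.49, 7.42 and 7.37 on caudal and 7.24, 7.27, 7.40 and 7.34 on rostral sham arrays, and these ranges overlapped. In all, 3 of the 5 measured genes were called in sham cord, against 0.335% of all genes, and 4 of 5 without the 283 pair, against 0.539%. Since the genes were chosen with earlier results of these data known, these counts are a description and not independent support. The median difference of the 5 genes was 1.65, and that of all genes was −0.01. With the 283 pair kept, the count of 3 fell to 0 without rostral array 277, caudal array 278 or caudal array 279. It fell to 1 without rostral 278, rostral 279 or caudal 280. The lowest sham differences with any 1 array left out were 2.52 for Pmp2, 2.27 for Egr2 and 1.45 for Ncmap. With all arrays they were 2.59, 2.35 and 1.52. No share of all genes called is given for these fits, so the lower counts do not show that these genes depend on single arrays. In the fits without the 283 pair, an alternative chosen after the data were seen left out each of the other 19 arrays in turn, and the count was 4 in every fit. These fits share the choice to leave out the pair, which the values of these same genes set apart.

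**Figure D1:**
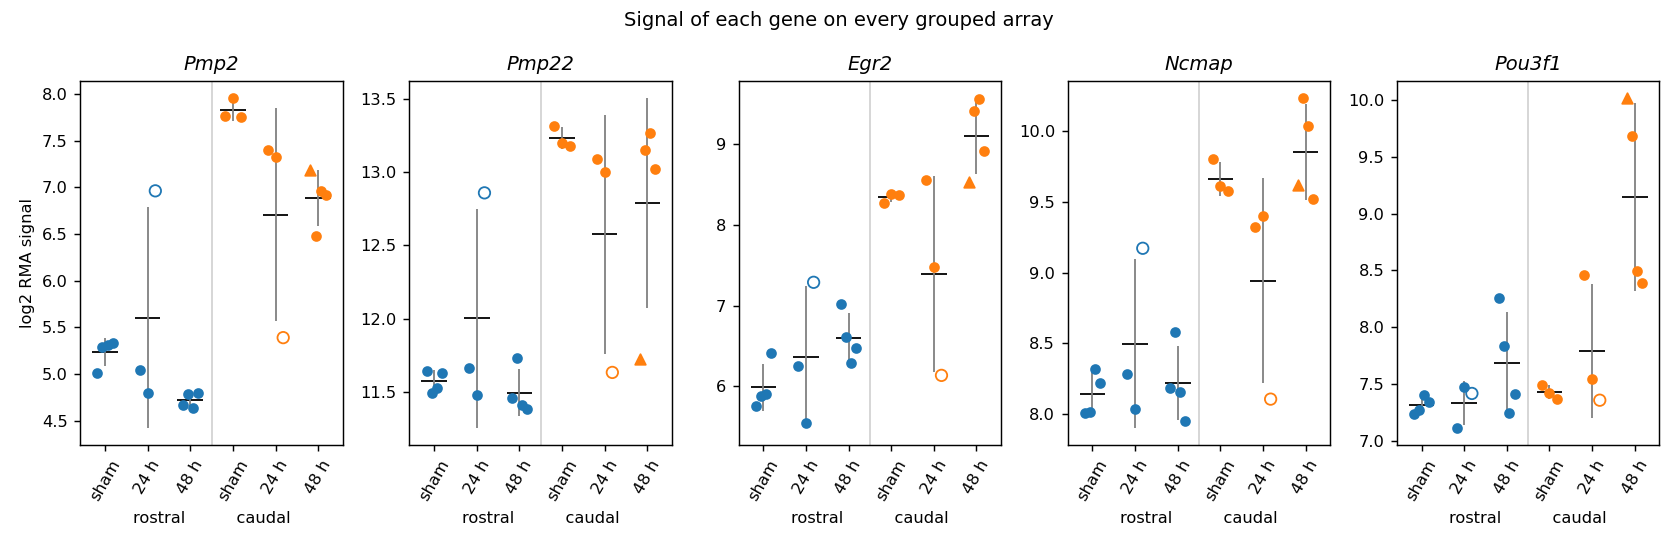
Log2 signal of each gene on every grouped array (points), with the group mean (bar) and SD (line), rostral in blue and caudal in orange. Open circles mark the arrays numbered 283 and triangles the caudal array numbered 271. The caudal sham arrays of Pmp2, Pmp22, Egr2 and Ncmap lie above all rostral sham arrays, and Pou3f1 is high only on caudal arrays after the clamp and on some rostral arrays at 48 h.

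Other genes of the peripheral nerve were set beside them. Of 13 further peripheral nerve genes measured, 2 were called higher in the caudal sham cord and none lower, with a list median of 0.43. These were Cldn19, the claudin of Schwann cell tight junctions, at 1.35 ± 0.22 (adjusted p = 0.00934), and Scn7a, a sodium channel family member of nonmyelinating Schwann cells, at 1.86 ± 0.37 (adjusted p = 0.028). Fxyd3 had a difference of 1.22 and Drp2, a dystrophin relative that binds periaxin, one of 1.12, and neither was called.

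Of 8 genes of signals to and from Schwann cells, 2 were called higher in the caudal sham cord, with a list median of 0.28. Ngfr, the p75 neurotrophin receptor, differed by 1.53 ± 0.24 (adjusted p = 0.00934), and Dhh, the hedgehog ligand that Schwann cells secrete, by 1.48 ± 0.31 (adjusted p = 0.0431). Of 9 Schwann cell regulators limma called none, with 1 at an unadjusted p under 0.05 and a median of 0.10. None of the 12 central myelin genes was called, and none had an unadjusted p under 0.05. Their median was −0.15, and Mag, a myelin-associated glycoprotein, had the smallest p at −0.20. None of the 14 relatives of Egr2, Pou3f1, Pmp22 and Pmp2 was called, the nearest being Emp2 of the Pmp22 family at 0.38 (adjusted p = 0.193), which was also the 1 relative with an unadjusted p under 0.05. None of the 8 genes of injured Schwann cells was called, and none had an unadjusted p under 0.05.

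Markers of sensory ganglia and of connective tissue were read in the same comparison. Of 9 sensory ganglion markers, 5 were called higher in the caudal sham cord and 4 were not called, with a median of 0.92. Pirt, Scn11a and Avil differed by 2.63, 2.78 and 1.87. The mean of the 9 markers was 7.05 to 7.65 on caudal and 5.90 to 6.06 on rostral sham arrays, and no marker was at 0 because RMA signals have no zero. Of 10 fibroblast and perineurial markers, 1 was called and 9 were not, Cldn1 at 1.07 ± 0.18 (adjusted p = 0.0121), with a median of 0.77 and levels of 9.59 to 9.95 against 9.00 to 9.39. No macrophage, immediate early, heart muscle, skeletal muscle or fat marker was called in this comparison. The part of ganglion or perineurial tissue in the differences of Pmp2, Pmp22, Egr2 and Ncmap was not tested.

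All numbers in the labels other than 276 and 277 belong to a caudal and a rostral array of the same group, so the regional difference can also be read number by number. For Pmp2 the difference between the caudal and rostral array was 2.42 to 2.65 for the 3 sham numbers and 1.70 to 2.52 for the 4 numbers at 48 h. For Egr2 it was 1.96 to 2.48 and 1.51 to 3.28, and for Ncmap 1.29 to 1.79 and 1.43 to 1.88. Pmp22 gave 1.54 to 1.82 in sham cord, while at 48 h number 271 gave 0.26 and the highest number gave 1.85. At 24 h, number 283 gave −1.57 for Pmp2, −1.22 for Pmp22, −1.15 for Egr2 and −1.06 for Ncmap, opposite in sign to every other number. Pou3f1 stayed between 0.01 and 0.22 in sham cord and lay between 0.98 and 1.86 at 48 h.

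**Figure D2:**
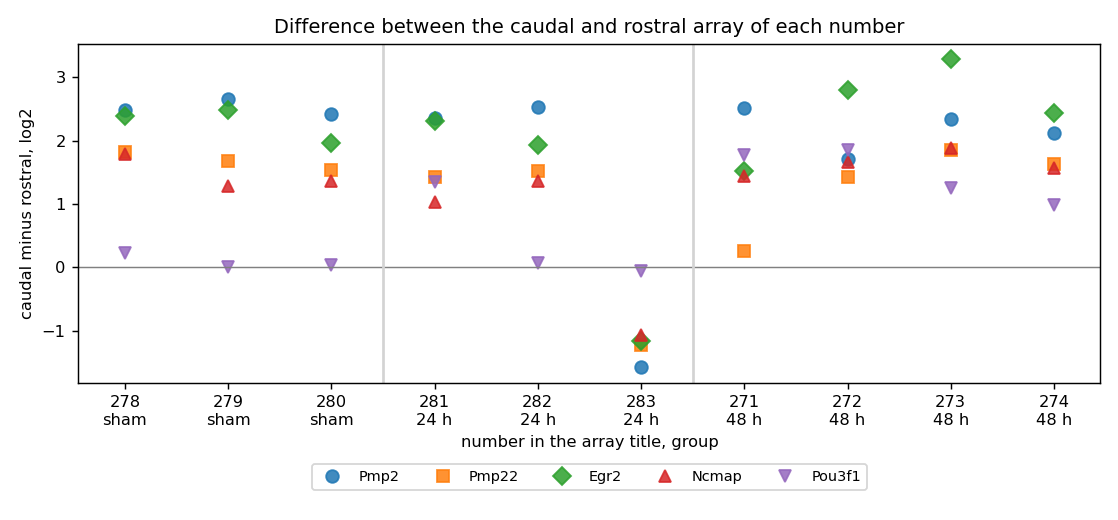
Difference in log2 signal between the caudal and the rostral array of each number in the labels, by group. Pmp2, Pmp22, Egr2 and Ncmap lie above 0 for every number other than 283, and Pou3f1 lies near 0 in sham cord and above 0 at 48 h.

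At 24 h after the clamp, limma called none of the 5 genes against sham in either region. The background was 0.0055% of all genes in the caudal and 0% in the rostral cord. At an unadjusted p under 0.05 there were 2 of the 5 in the caudal and 0 in the rostral cord. Those were Pmp2 at −1.12 and Ncmap at −0.72, which became −0.46 and −0.30 without the 283 pair. Pmp2 read 7.41, 7.33 and 5.39 on the caudal and 5.05, 4.80 and 6.96 on the rostral 24 h arrays, the last of each being number 283. The 2 other caudal arrays lay below the lowest caudal sham array at 7.75, with a difference of −0.46 ± 0.16 (adjusted p = 1) in the fit without that number.

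The remaining myelin genes had the same arrangement at 24 h. Pmp22 read 13.09, 13.00 and 11.64 on caudal and 11.67, 11.48 and 12.86 on rostral arrays. Ncmap read 9.32, 9.40 and 8.11 on caudal and 8.28, 8.04 and 9.17 on rostral arrays. In each, number 283 was the lowest caudal and the highest rostral array.

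Egr2 read 8.56, 7.48 and 6.14 on caudal and 6.25, 5.54 and 7.29 on rostral arrays at 24 h. Caudal arrays 281 and 282 differed by more than the caudal sham arrays did among themselves. Pou3f1 read 8.46, 7.54 and 7.36 on caudal and 7.11, 7.47 and 7.42 on rostral arrays, so that caudal array 281 alone stood above the sham range by a wide margin. The difference from sham for Pou3f1 was 0.36 ± 0.36 in the caudal cord (adjusted p = 1).

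Between the regions at 24 h, none of the 5 genes was called with all arrays (background 0%), and 2 had an unadjusted p under 0.05. With that pair left out 3 were called, against 0.132% of all genes: Pmp2 at 2.45, Egr2 at 2.12 and Ncmap at 1.20, with Pmp22 at 1.47. Since the pair was set apart by the regional values of these same genes and 2 arrays per region remain, these values are a description and not a test of the region at 24 h. That count of 3 became 1 when rostral 282 or caudal 281 of the 24 h group was left out as well, 4 without caudal 271 of the 48 h group, and 2 or 3 without any other array.

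At 48 h Pou3f1 rose 3.30-fold in the caudal cord over sham, and it was the only member called with all arrays. That is 1 of 5 genes against 12.5% of all genes, and no test compared the members with each other. Every caudal 48 h array read lower than any caudal sham array for Pmp2 and higher for Egr2. With all arrays neither passed the threshold, and no share of all genes is given for such separation. Pmp22 and Ncmap overlapped their sham values.

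Pou3f1 read 10.02, 9.69, 8.49 and 8.39 on the caudal 48 h arrays, all above the highest caudal sham array at 7.49. Its spread was wide, with arrays 271 and 272 well above 273 and 274. The rise was 1.72 ± 0.33 (adjusted p = 0.00299), and the adjusted p was 0.00536 without the 283 pair. Another probe set of Pou3f1 gave 1.28 (adjusted p = 0.00681 over 34945 probe sets). In a fit of the caudal sham and 48 h arrays alone, the adjusted p was 0.142.

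Egr2 read 8.53, 9.41, 9.57 and 8.92 on caudal 48 h arrays, against at most 8.38 in caudal sham cord. Array 271 lay closest to sham. The difference was 0.77 ± 0.43 (adjusted p = 0.204), and the adjusted p was 0.0865 without the 283 pair and 0.0257 with arrays weighted by their quality.

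Pmp2 read 7.19, 6.48, 6.96 and 6.92 on caudal 48 h arrays, all below the lowest caudal sham array at 7.75. The difference was −0.94 ± 0.43 (adjusted p = 0.131) with all arrays. In the fit without the 283 pair it was −0.94 ± 0.14, which passed the test (adjusted p = 0.000437). In every fit that left out the pair and a further array it passed as well, with adjusted p between 7.46e-05 and 0.00568. All these fits share the choice to leave out the pair, which Pmp2 helped to set apart, so they are no independent test. When each of the 21 grouped arrays was left out alone, Pmp2 was never called, with adjusted p from 0.0659 to 0.255.

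Pmp22 read 11.73, 13.15, 13.27 and 13.02 on caudal 48 h arrays. Array 271 read near the rostral level and the other arrays at the caudal sham level. The difference was −0.44 ± 0.36 with all arrays and −0.09 without array 271 (95% interval with all arrays −1.20 to 0.32). Ncmap read 9.62, 10.24, 10.04 and 9.52, spanning the sham range, with a difference of 0.19 ± 0.28 (adjusted p = 0.627). The interval for Ncmap, −0.40 to 0.78, allows a moderate change in either direction.

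In total, 1 of 5 genes was called in the caudal cord at 48 h, against 12.5% of all genes, and 2 of 5 without the 283 pair, against 9%. For so short a list that share is near the background. The median of the 5 genes was 0.19 and that of all genes 0.00.

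**Figure D3:**
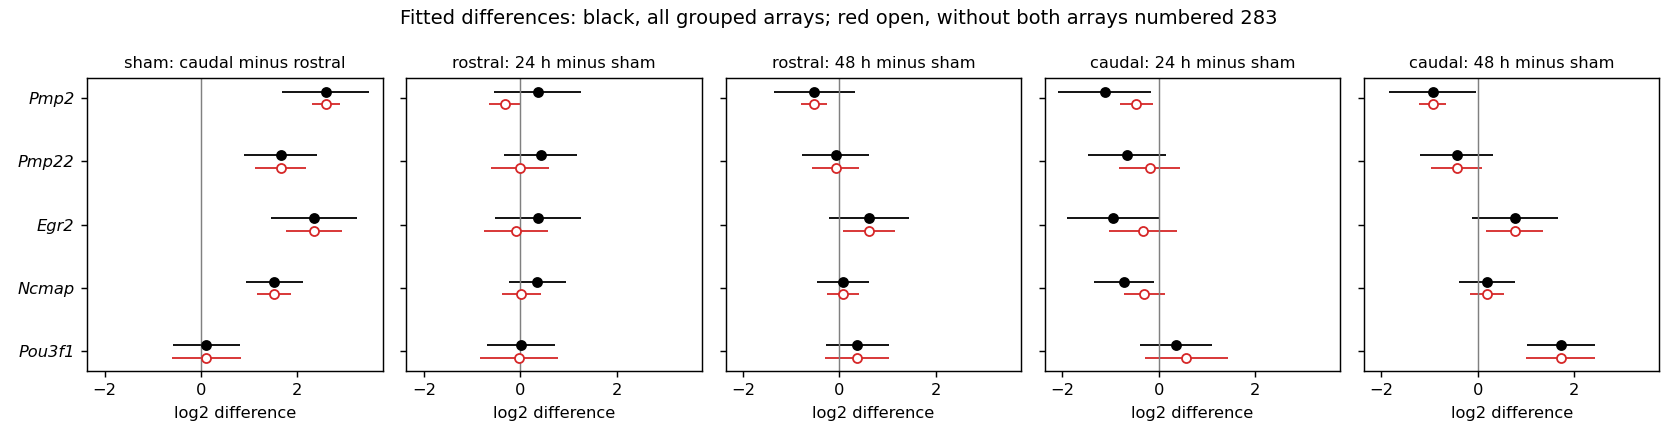
Fitted log2 differences (points) with 95% intervals (lines) for the region within sham and for each clamp time against sham, with all grouped arrays in black and without both arrays numbered 283 in red. Leaving out that pair narrows the intervals of Pmp2, Egr2 and Ncmap, and Pou3f1 at 48 h in the caudal cord is far from 0 either way.

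In the rostral cord at 48 h, none of the 5 genes was called against sham (background 0.616%), and none had an unadjusted p under 0.05. Pmp2 read 4.67, 4.78, 4.63 and 4.79, all below the lowest rostral sham array at 5.01, with a difference of −0.52 ± 0.40 (adjusted p = 1). The adjusted p was 0.108 without the 283 pair and 0.0172 in a fit of the rostral sham and 48 h arrays alone. Egr2 read 7.02, 6.62, 6.29 and 6.48 and overlapped sham through array 280, with a difference of 0.61 ± 0.40 (adjusted p = 0.955).

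Pou3f1 read 8.25, 7.83, 7.25 and 7.41 on rostral 48 h arrays, with arrays 271 and 272 above the sham range and the others inside or near it. Its difference was 0.37 ± 0.31 (adjusted p = 1). Pmp22, at 11.46, 11.73, 11.41 and 11.39, and Ncmap, at 8.19, 8.58, 8.16 and 7.96, overlapped their sham values, with differences of −0.08 and 0.08.

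Between the regions at 48 h, all 5 measured genes were called higher in the caudal cord, against 9.71% of all genes (7.54% without the 283 pair, where all 5 were called too). The differences were 2.17 for Pmp2, 1.29 for Pmp22, 2.51 for Egr2, 1.63 for Ncmap and 1.46 for Pou3f1, with adjusted p between 0.000693 and 0.0202. Pou3f1 thus passed the regional test at 48 h and not in sham cord. The test of the difference itself, the clamp effect at 48 h in the caudal minus that in the rostral cord, gave 1.35 ± 0.46 for Pou3f1 (adjusted p = 0.26), and none of the 5 genes was called (background 0.561%), with Pou3f1 the 1 gene at an unadjusted p under 0.05. A count of 1 followed when caudal 48 h array 274 was left out. The same test at 24 h called none (background 0%), with 3 of the 5 at an unadjusted p under 0.05. In a fit of the 48 h groups alone, 3 of the 5 genes were called between the regions, and Pmp22 (adjusted p = 0.133) and Pou3f1 (adjusted p = 0.174) were not.

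From 24 h to 48 h in the caudal cord, Egr2 (1.72 ± 0.43, adjusted p = 0.0217) and Pou3f1 (1.36 ± 0.33, adjusted p = 0.0204) were called higher, 2 of 5 against 6.69% of all genes. Both calls were lost without the 283 pair, where none of the 5 was called against 1.01% of all genes, with differences of 1.09 for Egr2 (adjusted p = 0.11) and 1.15 for Pou3f1 (adjusted p = 0.181). The count was also 0 without caudal 24 h array 282 and 1 without caudal 48 h array 272. In the rostral cord none of the 5 was called between these times (background 0.363%), and none had an unadjusted p under 0.05.

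The order of group means summarises each gene over the 6 groups. Pmp2 ran from 7.83 in caudal sham through 6.89 in caudal 48 h, 6.71 in caudal 24 h, 5.60 in rostral 24 h and 5.24 in rostral sham to 4.72 in rostral 48 h cord. Only the highest pair of neighbours and the lowest pair did not overlap, and the overlap of the caudal with the rostral 24 h arrays lay in number 283. Egr2 ran from 9.11 in caudal 48 h through 8.34 in caudal sham, 7.39 in caudal 24 h, 6.60 in rostral 48 h and 6.36 in rostral 24 h to 5.99 in rostral sham cord. Its neighbours overlapped other than the highest pair.

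Pmp22 ran from 13.23 in caudal sham through 12.79 in caudal 48 h, 12.58 in caudal 24 h, 12.00 in rostral 24 h and 11.58 in rostral sham to 11.50 in rostral 48 h cord, and all neighbours overlapped. Ncmap ran from 9.85 in caudal 48 h through 9.66 in caudal sham, 8.94 in caudal 24 h, 8.50 in rostral 24 h and 8.22 in rostral 48 h to 8.14 in rostral sham cord, and its neighbours overlapped other than caudal sham and caudal 24 h. Pou3f1 had a different order, with 9.15 in caudal 48 h, 7.79 in caudal 24 h, 7.68 in rostral 48 h, 7.43 in caudal sham, 7.33 in rostral 24 h and 7.31 in rostral sham cord. All neighbours in the order of Pou3f1 overlapped, caudal 48 h and caudal 24 h through array 281.

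In the caudal cord at 48 h, 2 of 9 regulators, 3 of 8 signals, 3 of 13 other peripheral nerve genes and 4 of 8 injury genes were called, against 12.5% of all genes. Among the regulators, Jun, a factor known to oppose the Egr2 programme in injured Schwann cells, rose by 1.25 ± 0.17 (adjusted p = 0.000129), and Nab2, a corepressor that binds Egr proteins, rose by 0.63 ± 0.15 (adjusted p = 0.0104). The other 7 regulators were not called, and the list median was 0.08. Sox10, a regulator that Schwann cells share with oligodendrocytes, had −0.55 (adjusted p = 0.2). For Jun the clamp effect differed between the regions, by 1.18 ± 0.23 (adjusted p = 0.0195). In the same test, the smallest p among immediate early genes was that of Atf3 at 2.87. Among macrophage markers it was that of Fcgr1 at 2.10 and among heart muscle markers that of Actc1 at −4.13, all called. The part of Schwann cells in the values of Jun and of the other genes of these lists was not tested.

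Of 8 signal genes, 3 fell and none rose. Erbb3, a neuregulin receptor, changed by −1.09 ± 0.27 (adjusted p = 0.0146), Nrg1, which encodes neuregulin, by −0.45 ± 0.14 (adjusted p = 0.0392) and Ngfr by −0.86 ± 0.24 (adjusted p = 0.0282). With the 283 pair left out 2 of the 8 were called, Nrg1 having an adjusted p of 0.0603.

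Of the 13 other peripheral nerve genes, 1 rose and 2 fell. Gjb1, the connexin of myelinating glia, rose by 1.01 (adjusted p = 0.0397, and 0.0614 without the 283 pair). Dag1, the dystroglycan gene, had −0.58 and Itgb4, the laminin receptor subunit, −1.10. Cldn19 had −0.61 with an adjusted p of 0.0696, and 0.00825 without the 283 pair, where 3 of the 13 fell and none rose.

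Of 8 genes of injured Schwann cells, 3 rose and 1 fell. Gdnf, a neurotrophic factor, rose by 0.80 (adjusted p = 0.00374), Btc, an EGF family ligand, by 1.90 (adjusted p = 0.00946) and Artn, a GDNF family ligand, by 0.32 (adjusted p = 0.0426), while Ncam1 had −0.50 (adjusted p = 0.0408). When the 283 pair was left out 2 rose, Gdnf and Btc, and none fell.

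Of 14 relatives of the listed genes 4 rose, 1 fell and 9 were not called. Those that rose were Egr3 by 2.19 (adjusted p = 2.39e-05), Egr1 by 1.71 (adjusted p = 0.00165), Egr4 by 0.62 (adjusted p = 0.00627) and Emp1 of the Pmp22 family by 2.12 (adjusted p = 0.00478). The relative that fell was Pou3f2, at −0.36 (adjusted p = 0.0373, and 0.0557 without the 283 pair), named here after its value was seen. Of 8 immediate early genes 7 rose, with a median of 2.09, and of 8 macrophage markers 5 rose, with a median of 1.84. The part of these cells and responses in the values of Egr2 and Pou3f1 was not tested. Of 12 central myelin genes none rose and 2 fell, Aspa at −1.21 and Ugt8a at −0.95, with a median of −0.20. Of 9 sensory ganglion markers 1 fell, Prph at −0.60, with a median of −0.60. Of 10 fibroblast and perineurial markers none rose and 1 fell, Col1a1 at −1.23. Of 8 heart muscle markers 5 rose and 1 fell, Ryr2, likewise named after its value was seen.

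**Figure D4:**
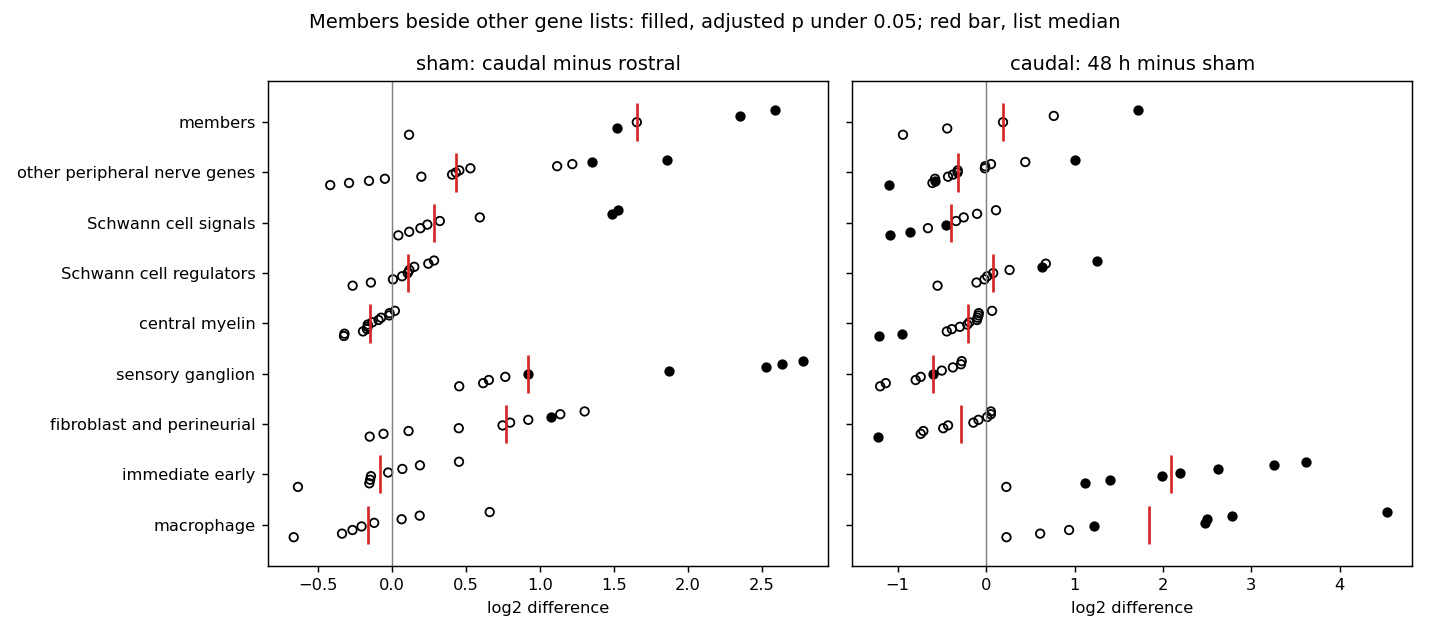
Log2 differences of every measured gene of the listed Schwann cell genes (members) and of other gene lists, for caudal minus rostral sham cord (left) and caudal 48 h minus sham (right). Filled points were called, open points were not, and the red bar is the list median. Peripheral nerve and sensory ganglion genes spread to the right in sham cord while central myelin stays near 0, and immediate early and macrophage genes lie to the right at 48 h.

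In the rostral cord at 48 h, Pllp, a membrane protein of myelin, fell by 0.99 (adjusted p = 0.00823), the only one of 13 other peripheral nerve genes called. Of 12 central myelin genes 1 was called there, Opalin at −1.36 (adjusted p = 0.0428, and 0.0829 without the 283 pair), and Ugt8a had −0.79 and Aspa −0.88, neither called. None of the 8 signals, 9 regulators or 8 injury genes was called, with 0, 0 and 1 at an unadjusted p under 0.05. Of the 14 relatives of the listed genes 2 were called, both relatives of Pmp2, Fabp3 higher by 0.98 (adjusted p = 0.00314) and Fabp4 higher by 4.17 (adjusted p = 0.0368). The other relatives of Pmp2, Fabp7 at −0.56 and Fabp5 at −0.28, were not called, Fabp5 being named to complete the family. Of 8 heart muscle markers 7 rose, with a list median of 5.23. Fabp3 is known as the heart form of the family and Fabp4 as the form of fat cells and endothelium. No fat cell marker was called, and the part of heart or vessel tissue in these values was not tested.

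At 48 h between the regions, 4 of 13 other peripheral nerve genes were called higher in the caudal cord, Fxyd3 at 1.61, Scn7a at 1.22, Gjb1 at 1.09 and Cldn19 at 0.79. Dhh had 1.30 and Nrg1 −0.47, each called. Among sensory ganglion markers 1 of 9 was called, Fxyd2 at 1.75.

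The genes whose signal over the 21 grouped arrays was most like that of each member were found by Pearson correlation, given as a description since the arrays share their groups. For Pmp2 they were Fam178b (r = 0.98), Hoxa9 (0.97) and Hoxd9 (0.96), the last 2 being homeobox genes of body position. For Pmp22 they were Arhgap19, Slc36a2 and Gas2l3 (all 0.98). For Ncmap they were Plekha4 (0.98), Sbspon (0.96) and Mlip (0.95), and for Egr2 Rai14 (0.95), Stat6 (0.94) and Plekha4 (0.93).

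Deviations from the group means kept part of this likeness. Over the 19 arrays other than the 283 pair they correlated at 0.92 for Pmp22 with Arhgap19 and at 0.83 for Ncmap with Plekha4, but at 0.30 for Pmp2 with Hoxa9. With the pair kept, these correlations were 0.96, 0.94 and 0.95. For Pmp2 with Hoxd9 the correlation was 0.95 with the pair and 0.37 without it, and with Fam178b 0.95 and 0.73. The genes nearest to Pou3f1 were Tor3a, Isg20 and Psmb8 (all 0.97), with deviations correlated at 0.95, 0.90 and 0.90 without the 283 pair. Isg20 is an interferon-stimulated exonuclease and Psmb8 a subunit of the immunoproteasome, and they changed by 2.83 and 2.54 in the caudal cord at 48 h.

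Among the members, signals over all arrays correlated at 0.95 for Egr2 with Ncmap, 0.90 for Pmp2 with Pmp22 and 0.90 for Pmp22 with Ncmap. Pou3f1 correlated at 0.68 with Egr2, 0.60 with Ncmap, 0.32 with Pmp2 and 0.27 with Pmp22. Deviations from group means without the 283 pair were less alike, at 0.57 for Pmp22 with Egr2, 0.51 for Pmp22 with Ncmap and −0.49 for Pmp2 with Pmp22.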

How the data were processed

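RNA from rostral and caudal spinal cord was measured on 22 Affymetrix arrays, of which 21 had a group. The authors deposited log2 values for 45101 probe sets, and per the submitters' processing notes RMA made them (version not given in the sources used here). RMA puts the arrays on a common scale and compresses differences of dim genes. No detection calls were used. Of the probe sets, 34945 had a single symbol in the platform annotation, 932 several, 9160 none and 64 were controls. Each of 18193 genes was represented by its probe set with the highest mean. limma 3.58.1 in R 4.3.3 (statmod 1.5.0) fitted 1 mean per group over all 6 groups, without a replicate block, for 11 contrasts. The residual degrees of freedom together with those of the prior were 18.7. Tests were two-sided. The fit was tested on simulated data, and in the simulated sham comparison of regions over 18193 genes it recovered 98 of 100 genes changed by 2 log2 units and 84 of 100 changed by 1.

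The members and the gene lists were chosen with earlier results of these data known. Genes named from a list are at most 4 per list and contrast, those with the smallest p-values; likeness names the 3 genes most correlated with each member, skipping clone, RIKEN and predicted names. Alternatives were another choice of probe set, brighter genes only, repeated normalisation, array centring, a trended prior, array weights, separate fits, replicate blocks, both labels of array 276, and leaving arrays out. The number of arrays limits the precision. Array 276 entered no main comparison.

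The caudal and rostral arrays of 1 number may come from the same mouse, which the labels do not say. Over 10 numbers, the correlation of their deviations from the group means ran from −0.45 to 0.53 and was over 0.1 for 6. It was 0.25 to 0.53 for the 48 h numbers and 0.28, 0.22 and 0.09 for sham numbers 278, 279 and 280. For the 24 h numbers 281, 282 and 283 it was −0.19, −0.03 and −0.45. The 24 h group means include the 283 pair, so these values cannot decide whether the numbers are pairs. The main fits did not take them as pairs, and replicate blocks were alternatives.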

Additional observations from a re-analysis of the deposited data

Results flagged for a closer look

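The signal of Pmp2 on rostral sham array 277 was 5.01, set off from the other 3 rostral sham arrays by a gap that took up most of the range of that group. The signal of Pmp22 on caudal 48 h array 271 was 11.73, likewise far below the other 3 arrays of its group. Chance alone marks about 1 in 20 groups in this way. Leaving out array 277 ended the 3 calls in sham cord while the 283 pair was kept. Those calls included Egr2 and Ncmap, which were not flagged on that array. The sham difference of Pmp2 was 2.59 with all arrays and at least 2.52 when any 1 array was left out. No share of all genes called is given for the fit without array 277. Leaving out array 271 moved the caudal 48 h difference of Pmp22 from −0.44 to −0.09, neither value being called.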

How the results depend on the processing

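Across 652 comparisons of a member with other settings, apart from leaving out arrays in turn, 625 stayed called or stayed uncalled. Another 12 lost a call, 15 gained one and none changed sign with a call. The 625 include uncalled values that changed sign. One was Pmp2 in caudal cord from 24 h to 48 h, at 0.18 with all arrays and −0.48 without the 283 pair. With brighter genes only, which keeps Pmp22 and Ncmap of the members, the counts of members called were 0 in sham between regions, 0 in caudal cord at 48 h against sham, 0 at 48 h against 24 h and 2 at 48 h between regions. Fits of the compared groups alone gave 0 in caudal cord at 48 h against sham, 0 at 48 h against 24 h, 3 at 48 h between regions and 1 in rostral cord at 48 h against sham. Array weights gave 2 in caudal cord at 48 h against sham. Without both arrays numbered 283 the count was 2 in caudal cord at 48 h against sham, against 9% of all genes. It was 0 in caudal cord at 48 h against 24 h (1.01%) and 3 at 24 h between regions (0.132%). For the remaining settings, here, above and below, the share of all genes called is not given, apart from the sham comparison with a fixed replicate block. Those counts are therefore no result about the members. The cause of the changes in count was not tested. Pmp2 read 4.63 to 4.79 on the rostral 48 h arrays, below the lower quartile of all probe sets on the arrays (5.17 to 5.52), where RMA compresses differences.

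The replicate block used the number in the labels, which was not shown to pair the arrays, and a caudal array correlated best with its own number for 6 of 10. A fixed replicate block gave 0 members called in sham between regions (0 of all genes). The random replicate block (consensus correlation 0.138) brought Pmp22 in sham past the threshold (adjusted p = 0.0429). With both blocks run without the 283 pair, alternatives chosen after seeing the data, the random replicate block gave 2 in caudal cord at 48 h against sham, 0 at 48 h against 24 h and 3 at 24 h between regions, and the fixed replicate block 2 at 24 h between regions.

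Leaving out arrays in turn, also without the 283 pair (chosen after seeing the data), gave 0 to 4 members in sham between regions, 1 to 3 in caudal cord at 48 h against sham, 0 to 3 at 48 h against 24 h, 0 to 4 at 24 h between regions, 0 to 1 in rostral cord at 48 h against sham and 0 to 1 for the difference between regions in the 48 h effect. For Egr2 that difference ran from −0.00056 to 0.34, never called, and for Pmp2 between 24 h and 48 h in caudal cord the difference ran from −0.58 to 0.53, called in 1 fit, without the 283 pair and caudal 48 h array 271.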

Other observations

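The rostral array numbered 276, which carries labels of both clamp times, read 5.28 for Pmp2, 11.34 for Pmp22, 6.11 for Egr2, 7.98 for Ncmap and 7.27 for Pou3f1. The mean signal of its 8 heart muscle markers was 10.63, and that of its 9 sensory ganglion markers 6.03. On the library labelled 283 caudal, the mean of 7 skeletal muscle markers was 7.12 and that of 3 fat cell markers 5.55, against at most 5.82 and 4.39 on caudal sham arrays.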
